A study of Mus musculus with 16 samples.

Results

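Sox17, Hnf4a, Afp, Ttr, Apoa1, Apoa2, Apob, Rbp4 and Pyy were followed across all groups as endoderm regulators, liver and yolk sac secretory genes and a gut hormone gene. They were picked by gene symbol and are 9 of the 54052 entries of the count table. Of these, 8 passed the filter on low counts and Apoa2 did not. Afp and Ttr passed only through shBeclin1 libraries of day 10, mainly those of CM without GF, and Pyy only through the shBeclin1 CM libraries, so a difference between groups was a condition of their being tested.

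The cells were ES-E14TG2a, a mouse embryonic stem cell line whose genotype is given as WT, and every library carried a short hairpin, either shBeclin1, named for Beclin1 (gene Becn1), or shNT. Both hairpins were sampled as embryonic stem cells at day 0, as embryoid bodies (EB) at day 4, and at day 10 in 2 cultures labelled CM, for cardiomyocyte, and CM without GF. The 16 libraries make 8 groups of 2. The study asked by what route Beclin1 knockdown favours the cardiomyocyte fate. The labels do not spell out NT or GF, do not say which agents the CM culture received, and do not say whether replicates were separate cultures, so the p-values measure the spread between these libraries, which may be technical. No library is labelled as free of a hairpin or as carrying a second hairpin against Becn1.

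Library totals ran between 14967744 and 21422980 counts. Becn1 itself averaged 38.1 CPM (library counts scaled by TMM to a common total) in shBeclin1 cells and 87.2 CPM in shNT cells at day 0, and 36.1 against 72.6 CPM at day 4. At day 10 Becn1 averaged 36.6 CPM in shBeclin1 cells against 59.0 CPM in shNT cells of the CM culture, and 44.0 against 62.2 CPM without GF. The cells of the shNT cultures at day 10 carried little of the type named on the label. The summed level of 8 cardiomyocyte markers was 3690 to 4060 CPM in shBeclin1 CM libraries and 39.0 to 41.5 CPM in shNT CM libraries, and 2160 to 4120 CPM in shBeclin1 against 18 to 22 CPM in shNT libraries without GF. The pair of shBeclin1 libraries without GF stood furthest apart among the day 10 groups, by a chi-square between replicates that came to 7.97 for each degree of freedom, against 2.01 to 3.04 in the other day 10 groups. The shNT stem cell libraries stood as far apart, at 8.23. Calls that were lost without any 1 of these libraries are named beside the result.

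Definitive endoderm of the embryo gives rise to the gut, liver and pancreas, and Sox17 is among its earliest transcription factors, though Sox17 also marks arterial and other endothelium. Visceral endoderm, which surrounds the early embryo and lines the yolk sac, feeds the embryo before a liver exists and secretes many of the plasma proteins that hepatocytes make later, among them alpha-fetoprotein, transthyretin and apolipoproteins. Hnf4a is the nuclear receptor that drives much of that secretory programme in both tissues. In bulk RNA, more cells of a type and more RNA per cell cannot be told apart.

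The stretches before the start of 3 of the secretory genes are shown because Afp and Apoa1 rose and Apob fell in the same shBeclin1 cells without GF. They come from RefSeq windows on GRCm38.p6, the same build as mm10, on the plus strand, and each stops before the first annotated transcribed base. Capitals mark the motifs searched on both strands: the TATA box as TATAAA, a liver-type run as GTTAAC or else with a final T as GTTAAT, the forkhead type as TGTTTGC, and the type read by zinc finger factors of the GATA family as AGATAA.
Afp, chr5:90490464-90490713: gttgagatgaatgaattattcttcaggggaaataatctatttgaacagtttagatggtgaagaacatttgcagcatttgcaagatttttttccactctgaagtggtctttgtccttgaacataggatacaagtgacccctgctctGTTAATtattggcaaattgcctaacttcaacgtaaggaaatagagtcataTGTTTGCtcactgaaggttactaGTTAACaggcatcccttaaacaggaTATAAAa
Apoa1, chr9:46228380-46228579: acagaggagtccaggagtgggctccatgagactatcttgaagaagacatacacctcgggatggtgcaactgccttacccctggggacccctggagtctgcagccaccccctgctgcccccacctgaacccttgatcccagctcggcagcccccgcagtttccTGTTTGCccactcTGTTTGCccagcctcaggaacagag
Apob, chr12:7977427-7977647: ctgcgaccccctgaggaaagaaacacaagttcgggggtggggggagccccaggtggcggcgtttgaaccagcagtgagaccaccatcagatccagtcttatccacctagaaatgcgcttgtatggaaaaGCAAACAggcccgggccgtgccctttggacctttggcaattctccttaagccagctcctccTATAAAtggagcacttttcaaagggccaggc
The Afp window held the TATA box, both liver-type runs and the forkhead type, the last starting 55 bases before the RefSeq start site. The Apoa1 window held the forkhead type at 88 and at 75 bases before the start. The Apob window held the TATA box and, on the opposite strand, the forkhead type, which reads GCAAACA as printed. No motif overlapped another in these windows. Of 32851 RefSeq windows of 300 bases, 13.6% held the TATA box letters, 3.05% the liver-type run ending in C, 7.1% the one ending in T, 5.07% the forkhead type and 11.2% the GATA type, and a match in letters does not show a bound site.

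Sox17 (ENSMUSG00000025902.13, chr1:4490931-4497354, minus strand, 4 merged exons, of which Gm37587 on the other strand shares 16.8% in length at no more than 2 counts a library) was near 0 in stem cells, rose in embryoid bodies with either hairpin and then parted by culture. At day 0 it had 2 and 1 counts in shBeclin1 and 3 and 3 in shNT libraries. At day 4 it stood at 4.72 and 4.29 CPM in shBeclin1 and at 4.81 and 3.84 CPM in shNT embryoid bodies, so the hairpins overlapped. At day 10 in CM it reached 23.5 and 29.2 CPM in shBeclin1 cells and 35.4 and 35.7 CPM in shNT cells. Without GF it stood at 5.01 and 6.92 CPM in shBeclin1 cells and at 1.61 and 1.32 CPM in shNT cells. The order of the hairpins was thus opposite in the day 10 cultures, with no overlap in either.

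Sox17 was lower in shBeclin1 than in shNT cells of the CM culture by a log2 fold of -0.43 (SE 0.122, edgeR adjusted p = 0.00454). That call was lost when shBeclin1 CM replicate 1 was dropped (log2 fold -0.28, adjusted p = 0.167). Without GF Sox17 was higher in shBeclin1 cells, by a log2 fold of 2.03 (SE 0.229, adjusted p = 1.18e-09). The difference of these effects, CM minus CM without GF, was -2.46 on the log2 scale (SE 0.260, adjusted p = 9.09e-10). At day 4 the effect was 0.06, with a 95% interval of -0.34 to 0.45 (adjusted p = 0.911). Day 4 exceeded day 0 by 46.2 times in shBeclin1 cells (counting interval 15.5 to 227) and by 22.7 times in shNT cells (10.1 to 63.0).

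Cdh5, the junction protein that defines endothelium, averaged 258 ± 9.74 CPM in shBeclin1 and 238 ± 3.34 CPM in shNT cells of the CM culture, and 60.7 ± 11.2 against 12.9 ± 0.138 CPM without GF (SD, n = 2 each). It was not called between hairpins in CM (log2 fold 0.12, adjusted p = 0.233), where Sox17 was lower in shBeclin1 cells, and it was higher in shBeclin1 cells without GF (log2 fold 2.24), as was Sox17. Over 6 endothelial markers the summed level was 939 to 1000 CPM in shBeclin1 and 895 to 896 CPM in shNT CM libraries, and 286 to 370 against 71.2 to 74.0 CPM without GF. Without GF all 6 of them rose in shBeclin1 cells, beside Sox17. Among CM cells Pecam1 and Kdr rose and Emcn fell, while Sox17 fell. The 6 definitive endoderm markers, Sox17 among them, summed to 44.3 to 48.3 CPM in shBeclin1 and 80.5 to 85.9 CPM in shNT CM libraries, and to 16.2 to 18.8 against 95.7 to 95.9 CPM without GF. Without GF, that sum and Sox17 therefore went opposite ways, but the markers split. Hhex rose in shBeclin1 cells as Sox17 did (log2 fold 3.28, adjusted p = 1.55e-13), while Foxa2 (-4.69), Cxcr4 (-4.09) and Gsc fell. Cer1, a defining member, was at 0 in both shBeclin1 cultures at day 10, but without GF it was not called between hairpins (adjusted p = 0.306). The part of endothelial cells in the Sox17 differences was not tested.

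**Figure D1:**
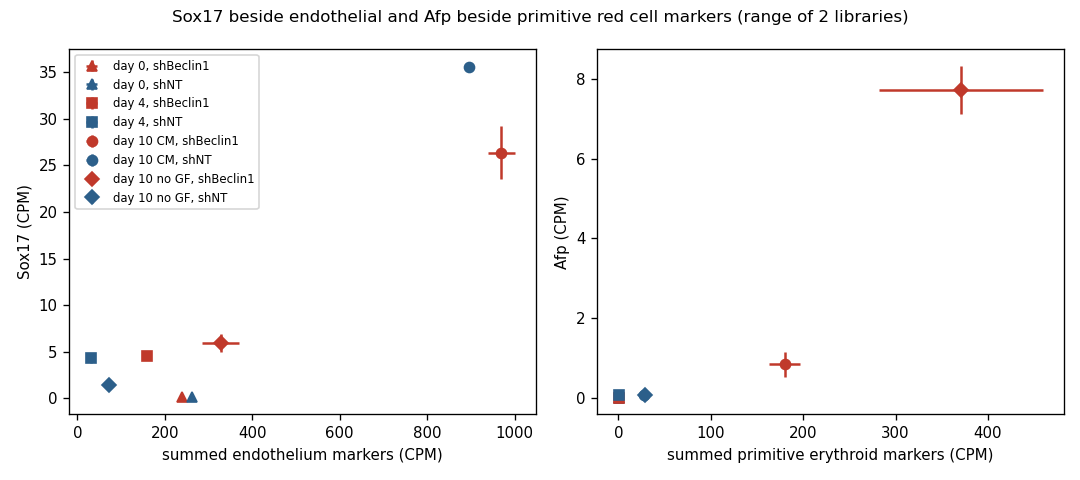
Left, mean Sox17 level (CPM) against the summed level of 6 endothelial markers (CPM); right, mean Afp level (CPM) against the summed level of 5 primitive erythroid markers (CPM), for the 8 groups, with lines over the range of the 2 libraries. The CM groups hold the highest Sox17, at 26.3 CPM in shBeclin1 and 35.6 CPM in shNT cells, and the shBeclin1 group without GF stands apart with 7.73 CPM of Afp.

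Hnf4a (ENSMUSG00000017950.16, chr2:163506808-163572910, plus strand, 13 merged exons) was highest in undifferentiated stem cells. It had 3.32 and 4.04 CPM in shBeclin1 and 3.64 and 4.52 CPM in shNT cells at day 0, and at most 0.657 CPM in any later library. At day 4 it had 0 and 2 counts in shBeclin1 and 1 and 5 counts in shNT embryoid bodies. The fall to day 4 was called in both hairpins, to 0.0164 of the day 0 level in shBeclin1 cells (counting interval 0.00197 to 0.0608) and to 0.0503 in shNT cells (0.0181 to 0.112). At day 10 Hnf4a stayed low, with 2 and 3 counts in shBeclin1 and 15 and 9 counts in shNT cells of the CM culture, and 4 and 12 against 2 and 4 counts without GF.

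In the CM culture Hnf4a was lower in shBeclin1 cells by a log2 fold of -1.93 (SE 0.681, adjusted p = 0.0223), but dropping a library ended the call in 3 of 4 fits, at an adjusted p of 0.119 for the fit that lacks replicate 1 of shNT, and of 0.118 and 0.0782 for those that lack replicate 1 or 2 of shBeclin1. With DESeq2 the adjusted p was 0.0513. Without GF the log2 fold was 1.22, not called (95% interval -0.16 to 2.61, adjusted p = 0.145). In the shBeclin1 cells without GF, where Afp averaged 7.73 CPM, Hnf4a averaged 0.417 ± 0.268 CPM (SD, n = 2).

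Afp (ENSMUSG00000054932.6, chr5:90490737-90508907, plus strand, 15 merged exons), alpha-fetoprotein, the main plasma protein of yolk sac and fetal liver, was close to absent except in shBeclin1 cells at day 10. It had 0 counts in all 4 day 0 libraries, 0 and 0 counts in shBeclin1 and 1 and 1 in shNT embryoid bodies. At day 10 it had 18 and 9 counts in shBeclin1 and 2 and 1 counts in shNT cells of the CM culture. Without GF it had 125 and 165 counts in shBeclin1 and 2 and 0 counts in shNT cells. The hairpins did not overlap in either culture, and the cells without GF held the high values.

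Afp was higher in shBeclin1 cells by 130 times without GF (counting interval 35.8 to 1080) and by 10.9 times in the CM culture (3.35 to 56.1). The fitted log2 folds were 6.85 (SE 0.516, adjusted p = 1.64e-13) and 3.33 (SE 0.718, adjusted p = 0.000287). Without GF the fold moved to 10.02 when shNT replicate 1, which held the 2 counts of that group, was dropped, and to 5.87 without shNT replicate 2. Among CM cells it was 2.68 without shBeclin1 replicate 1. The difference of the effects between cultures was not called, at -3.52 (95% interval -6.41 to -0.64, adjusted p = 0.0627). Within shBeclin1 cells, CM cells had 0.107 of the Afp level of cells without GF (counting interval 0.069 to 0.158).

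Markers of primitive red cells, which form in the yolk sac next to the Afp-secreting endoderm, were higher in shBeclin1 cells at day 10, as Afp was. The summed level of 5 of them was 282 to 459 CPM in shBeclin1 and 24.4 to 33.3 CPM in shNT libraries without GF, and 163 to 197 against 25.5 to 31.1 CPM in the CM culture. All 5 rose without GF in shBeclin1 cells, and in CM all but Hbb-y (edgeR adjusted p = 0.246). In shNT cells the sum also rose, from 0.606 to 0.836 CPM at day 4, while Afp stayed at no more than 2 counts a library. The 8 hepatocyte markers summed to 1.54 to 2.53 CPM in shBeclin1 and 0.372 to 0.687 CPM in shNT libraries without GF, with Tat and Cyp3a11 at 0 in all day 10 groups. Only 2 of the 8 passed the filter on low counts, and neither was called there. In shNT stem cells the same sum was 2.56 to 3.26 CPM. Alb, which encodes albumin, averaged 0.566 ± 0.0857 CPM in shBeclin1 and 0.205 ± 0.115 CPM in shNT cells without GF (SD, n = 2 each). The part of any of these cells in the Afp result was not tested.

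Ttr (ENSMUSG00000061808.4, chromosome 18, plus strand, 4 merged exons), transthyretin, the carrier of thyroid hormone that also binds the retinol-binding protein encoded by Rbp4, had a pattern near that of Afp. Up to day 4 no group held more than 1 count. In the CM culture it had 5 and 2 counts in shBeclin1 and 3 and 0 counts in shNT cells, and without GF 116 and 156 counts in shBeclin1 and 5 and 4 counts in shNT cells. The shBeclin1 cells without GF were alone at a high level. There the log2 fold over shNT was 4.72 (SE 0.409, adjusted p = 3.86e-12), or 27.2 times with a counting interval of 14.1 to 60.1. Among CM cells it was 1.42 and not called (95% interval -0.50 to 3.33, adjusted p = 0.273), and the difference of the effects was -3.30, also not called (adjusted p = 0.0655).

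Ttr is also made in quantity by choroid plexus, the secretory epithelium of the brain ventricles. The 5 markers listed for that tissue summed to 6.15 to 8.54 CPM in shBeclin1 and 261 to 269 CPM in shNT libraries without GF. That sum is not particular to day 10, as it was 43.9 to 45.7 CPM in shNT stem cells and 184 to 190 CPM in shNT embryoid bodies. The part of choroid plexus cells in the Ttr result was not tested. Per length, Ttr led the set in shBeclin1 cells without GF, at 6.11 ± 0.761 CPM per kb of merged exon, ahead of Rbp4 at 3.06 ± 0.306, Afp at 2.30 ± 0.256 and Sox17 at 1.25 ± 0.283 CPM per kb (SD, n = 2). As levels among all tested genes there, Afp lay above 45.1% and Ttr above 44.3% of them.

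Rbp4 (ENSMUSG00000024990.13, chr19:38116629-38125281, minus strand, 7 merged exons), which carries retinol from liver and yolk sac to tissues, was detected in every library. It stood at 1.56 and 2.12 CPM in shBeclin1 and 3.26 and 3.01 CPM in shNT stem cells, and at 1.86 and 2.62 CPM in shBeclin1 and 1.67 and 2.15 CPM in shNT embryoid bodies. At day 10 it stood at 6.31 and 4.92 CPM in shBeclin1 and 13.3 and 13.1 CPM in shNT cells of the CM culture. Without GF it stood at 3.82 and 4.4 CPM in shBeclin1 and 11 and 9.45 CPM in shNT cells. The shBeclin1 libraries lay below the shNT libraries at day 0 and in both day 10 cultures, and the hairpins overlapped at day 4.

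Rbp4 fell in shBeclin1 cells by almost the same factor in both cultures, with log2 folds of -1.24 (SE 0.174, adjusted p = 2.42e-07) in CM and -1.31 (SE 0.184, adjusted p = 1.39e-07) without GF. The difference of the effects was 0.07, with a 95% interval of -0.43 to 0.57. At day 0 the log2 fold was -0.77 (SE 0.262, adjusted p = 0.0470), a call lost when any of the day 0 libraries was dropped (adjusted p 0.0679 to 0.338). Set against the effect at day 4, that in CM differed by -1.48 on the log2 scale (SE 0.328, adjusted p = 0.000607), and without GF the difference was -1.55 (SE 0.334, adjusted p = 0.000236). Rbp4 and Ttr, whose products travel in plasma bound to each other, thus went opposite ways in shBeclin1 cells without GF.

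**Figure D2:**
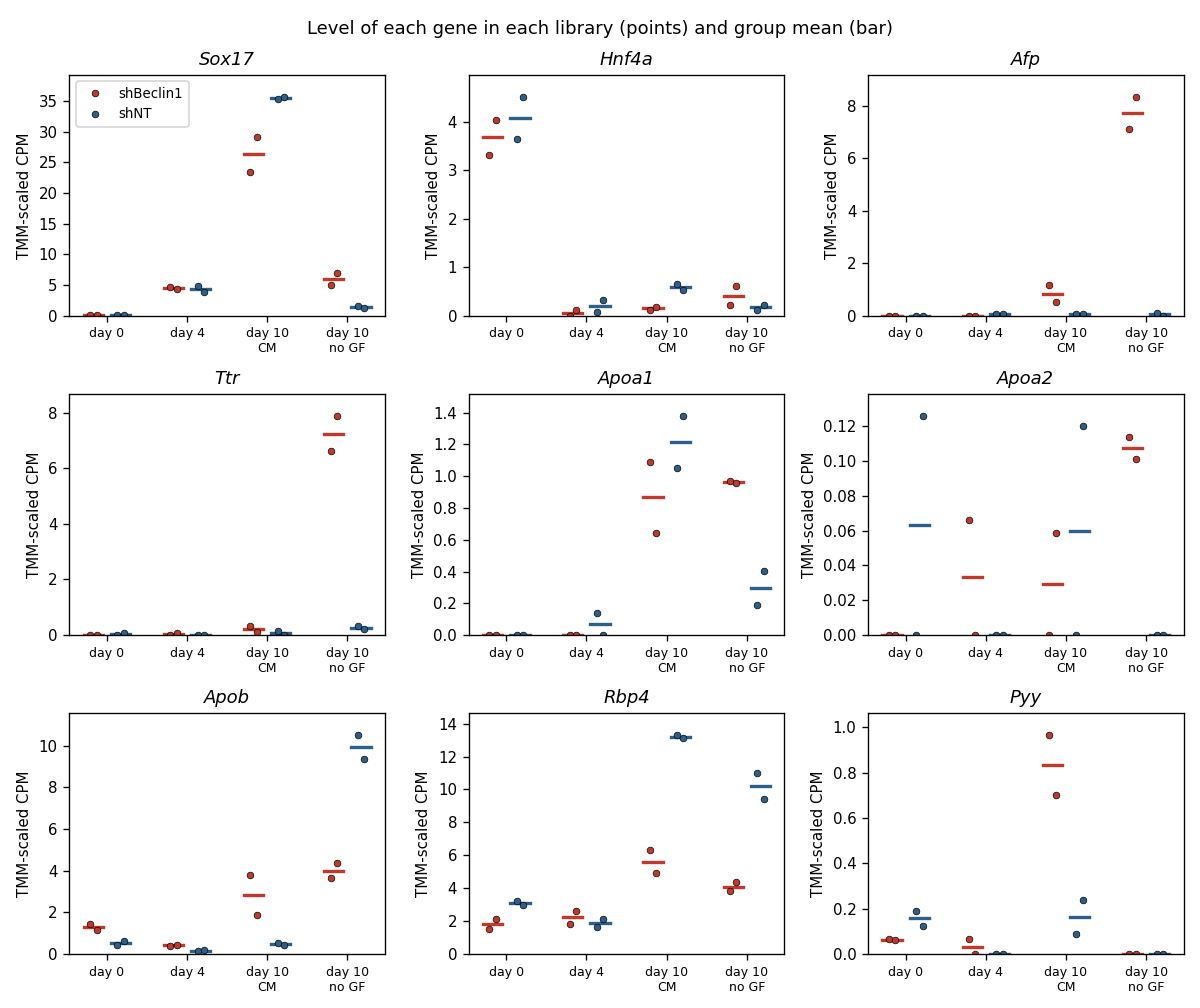
Level of each gene in CPM (vertical axis, a separate linear scale per gene) in every library, at day 0, day 4 and in the 2 day 10 cultures, with shBeclin1 in red left of shNT in blue and bars at the group means. Afp and Ttr are high in shBeclin1 cells without GF alone, whereas Rbp4 is highest in shNT cells of both day 10 cultures, at 13.2 and 10.2 CPM on average.

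Apoa1 (ENSMUSG00000032083.8, chr9:46228580-46230466, plus strand, 3 merged exons), the main protein of high-density lipoprotein, had no counts at day 0 and 2 in all at day 4, both in an shNT library. In the CM culture it had 17 and 11 counts in shBeclin1 and 24 and 23 counts in shNT cells, which differed by a log2 fold of -0.48, not called (95% interval -1.36 to 0.41, adjusted p = 0.446). Without GF it had 17 and 19 counts in shBeclin1 and 3 and 7 counts in shNT cells. The shNT cells without GF thus held the low values of day 10, below both shBeclin1 libraries beside them. Without GF the log2 fold was 1.67 (SE 0.575, adjusted p = 0.0139), a call lost without shNT replicate 1 (adjusted p = 0.143) and with DESeq2 (0.0865). It was 2.32 without shNT replicate 2. Apoa2 (ENSMUSG00000005681.12, chr1:171225054-171226379, plus strand, 4 merged exons), the second protein of that particle, was at most 2 counts in any library and gave no test. Its 4 counts in shBeclin1 cells without GF, 2 in each library, faced 0 in shNT cells.

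Apob (ENSMUSG00000020609.14, chr12:7977648-8016835, plus strand, 29 merged exons), the scaffold of the triglyceride-rich particles that yolk sac, liver and gut export, changed in opposite directions in the day 10 cultures. It stood at 3.80 and 1.87 CPM in shBeclin1 and 0.525 and 0.421 CPM in shNT cells of the CM culture. Without GF it stood at 3.65 and 4.35 CPM in shBeclin1 and 10.5 and 9.34 CPM in shNT cells. Before that it had 1.43 and 1.15 CPM in shBeclin1 and 0.447 and 0.628 CPM in shNT cells at day 0, and 0.399 and 0.445 against 0.139 and 0.202 CPM at day 4. The shBeclin1 libraries were above the shNT libraries at each point up to the CM culture and below them without GF.

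In the CM culture Apob rose in shBeclin1 cells by a log2 fold of 2.53 (SE 0.367, adjusted p = 4.61e-07), and without GF it fell by a log2 fold of -1.30 (SE 0.221, adjusted p = 4.12e-06). The difference of the effects was 3.83 (SE 0.426, adjusted p = 2.92e-09). The effects at day 0 and day 4 were 1.25 (adjusted p = 0.0535) and 1.27 (adjusted p = 0.238) and were not called. Within shNT cells, CM cells had 0.0487 of the Apob level of cells without GF (counting interval 0.0289 to 0.0772), and within shBeclin1 cells 0.694 of it (0.529 to 0.907; adjusted p = 0.120). Apob and Rbp4 were both highest or second highest in shNT cells without GF, where the summed level of 5 neural markers was 399 to 401 CPM, against 27.9 to 32.0 CPM in shBeclin1 cells without GF. In shNT CM cells, where Rbp4 was highest at 13.2 CPM and Apob averaged 0.473 CPM, the neural sum was 44.1 to 47.6 CPM. The part of neural cells in the Apob and Rbp4 results was not tested.

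Pyy (ENSMUSG00000017311.15, chr11:102106676-102107832, minus strand, 4 merged exons), a hormone of gut and islet endocrine cells, had 15 and 12 counts in shBeclin1 and 2 and 4 counts in shNT cells of the CM culture, and 0 counts in all 4 libraries without GF. Stem cells had 1 and 1 counts with shBeclin1 and 3 and 2 counts with shNT. The gene was thus highest in shBeclin1 CM cells, by 5.45 times over shNT CM cells (counting interval 2.20 to 16.1; log2 fold 2.38, SE 0.689, adjusted p = 0.00561). That call was lost without shNT replicate 1 (log2 fold 1.73, adjusted p = 0.151) or shBeclin1 replicate 1 (0.0741) and with DESeq2 (0.163), and the fold was 3.14 without shNT replicate 2. Over shBeclin1 cells without GF, Pyy in shBeclin1 CM cells was at least 10.3-fold higher, taking 3 counts as the most the empty pair of libraries could hide. The 5 enteroendocrine markers summed to 6.96 to 7.98 CPM in shBeclin1 and 1.14 to 1.27 CPM in shNT CM libraries, and Cck alone averaged 7.14 ± 0.741 CPM in the shBeclin1 CM libraries (SD, n = 2). Chga, a granule protein of the same list, fell there (log2 fold -2.97, adjusted p = 0.0024), and the part of endocrine cells in the Pyy result was not tested. Gcg was at 0 in every group, and Neurog3 at 0 in shBeclin1 CM cells.

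**Figure D3:**
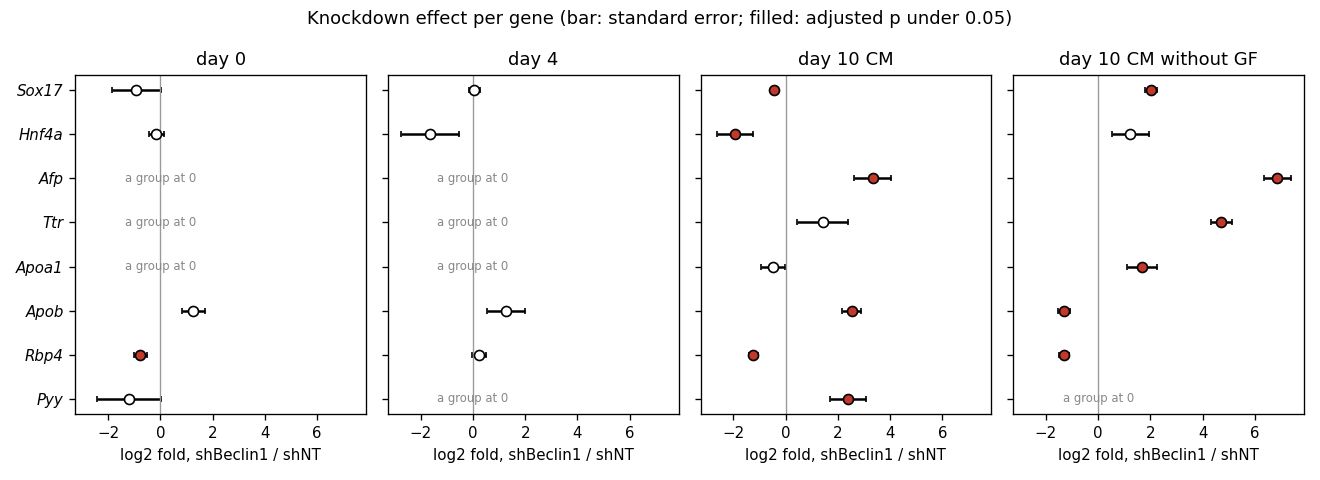
Log2 fold of shBeclin1 over shNT (horizontal axis) for the 8 tested genes in each of the 4 comparisons, with standard errors as bars, filled where the adjusted p was under 0.05 and left blank where a group had 0 counts. Sox17 and Apob stand on opposite sides of 0 in the day 10 cultures, while Rbp4 stands at -1.24 and -1.31.

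Counted over the set, 1 of the 8 tested genes was called between the hairpins at day 0, Rbp4, which was lower. Of all 19141 tested entries 13.3% were called there, 5.79% higher and 7.55% lower. At day 4 no member was called by edgeR or at an unadjusted p under 0.05, and none by DESeq2, against 20.8% of all entries (10.7% higher and 10.1% lower). In the CM culture 6 were called, Afp, Apob and Pyy higher and Sox17, Hnf4a and Rbp4 lower in shBeclin1 cells, against 38.4% of all entries (19.2% higher and 19.1% lower). Without shBeclin1 replicate 1 of that culture 3 remained, namely Afp, Apob and Rbp4. Without GF 6 were called, Sox17, Afp, Ttr and Apoa1 higher and Apob and Rbp4 lower, against 54.7% of all entries (27.3% higher and 27.3% lower). The median log2 fold of the 8 tested members was 0.49 in CM and 1.45 without GF, with -0.02 and -0.01 over all entries. Afp, Ttr and Pyy passed the filter on low counts only through shBeclin1 libraries of day 10. The day 10 counts and medians given here, and the day 10 counts of the next paragraphs, therefore partly restate that filter. The hairpins' libraries did not overlap for 4 of the 8 tested genes at day 0, where this held for 51.4% of all tested entries. They did not overlap for 2 at day 4 (59.5%), for 6 in CM (68%) and for 6 without GF (76.1%). Apoa2, which was not tested, did not overlap without GF either.

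Differences between effects of the knockdown were called for no member between day 4 and day 0 (14.8% of all entries called, 7.93% upward and 6.89% downward, and 1 member at an unadjusted p under 0.05). They were called for 2 members between CM and day 4 (26.1% of entries, 12.2% upward and 13.9% downward), for 4 between CM without GF and day 4 (39.7%, 18.5% and 21.2%), and for 4 between CM and CM without GF (34.4%, 16.2% and 18.2%). The last were Apob, higher in CM, and Sox17, Hnf4a and Apoa1, lower in CM. For Hnf4a the difference was -3.16 (SE 0.986, adjusted p = 0.0112), lost without shBeclin1 replicate 2 of the culture without GF (-2.27, adjusted p = 0.179). For Apoa1 it was -2.15 (SE 0.734, adjusted p = 0.0215), with adjusted p between 0.0767 and 0.125 when shNT CM replicate 2, shBeclin1 CM replicate 2 or shNT replicate 1 without GF was dropped, and 0.148 with DESeq2. These comparisons share libraries.

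Over time, 3 members were called between day 4 and day 0 in shBeclin1 cells (67.8% of all entries called, 35.5% higher and 32.3% lower at day 4) and 5 in shNT cells (66.9%, 34.3% higher and 32.6% lower). Sox17 rose and Hnf4a and Apob fell in both hairpins. Apob fell by a log2 fold of -1.59 (adjusted p = 0.00255) in shBeclin1 and -1.61 (adjusted p = 0.0405) in shNT cells, and the shNT call was lost in 3 of the 4 fits that dropped a library, at adjusted p 0.0846 to 0.177. In shNT cells Rbp4 fell too, by -0.71 (adjusted p = 0.0177), lost without shNT replicate 1 of day 0 (0.0734) or of day 4 (0.153). Pyy, with 5 counts at day 0 and 0 at day 4 in shNT cells, was called at an adjusted p of 0.0478 and lost that call when any library of the comparison was dropped.

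From day 4 to the CM culture 6 members rose and none fell in shBeclin1 cells (72.4% of all entries called, 37.3% higher and 35.1% lower), and 5 rose and none fell in shNT cells (70%, 36.8% higher and 33.2% lower). Sox17 rose by log2 folds of 2.55 in shBeclin1 and 3.04 in shNT cells, and Rbp4 by 1.30 (SE 0.225) in shBeclin1 and 2.78 in shNT cells. Apoa1 in shBeclin1 CM cells was at least 9.45-fold higher and Afp at least 9.11-fold higher than in shBeclin1 embryoid bodies, which had 0 counts of either. In shNT cells the rises of Hnf4a (adjusted p = 0.0383) and Pyy (0.0442) rested on 24 and 6 counts, and each was lost in several fits that dropped a library, for Hnf4a at 0.328 without shNT replicate 1 of day 4.

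From day 4 to the culture without GF 7 members rose in shBeclin1 cells (73.8% of all entries called, 38% higher and 35.8% lower). In shNT cells 3 rose, Ttr, Apob and Rbp4, and 1 fell, Sox17 (68.7%, 35.7% higher and 33% lower). Apob rose 57.8 times in shNT cells (counting interval 24.5 to 179) and 9.48 times in shBeclin1 cells (5.47 to 17.8). Sox17 rose by a log2 fold of 0.42 (adjusted p = 0.0393) in shBeclin1 cells, a call lost without shBeclin1 replicate 2 of the culture without GF (0.16, adjusted p = 0.541), without either day 4 shBeclin1 library (0.0638 and 0.2), in the comparison alone (0.074) and with DESeq2 (0.055). Sox17 fell by -1.56 (SE 0.252, adjusted p = 1.10e-06) in shNT cells. Hnf4a, at 16 counts in shBeclin1 cells without GF, rose by a log2 fold of 2.68. That call was lost without shBeclin1 replicate 2 of the culture without GF (log2 fold 1.79) and without shBeclin1 replicate 1 of day 4 (1.87).

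Between the day 10 cultures 4 members differed in shBeclin1 cells (37% of all entries called, 20.3% higher and 16.7% lower), with Sox17 and Pyy higher and Afp and Ttr lower in CM than in CM without GF. In shNT cells 5 differed (52.8%, 26.9% higher and 25.9% lower), with Sox17, Hnf4a, Apoa1 and Pyy higher and Apob lower in CM. The Hnf4a call ended in 3 of 4 fits that dropped a library (adjusted p 0.0507 to 0.156) and with DESeq2 (0.0525), and that of Pyy in 3 of 4 such fits (0.150 to 0.196), with no filter on low counts (0.0783) and with DESeq2 (0.0894). The Sox17 log2 fold was 2.13 (SE 0.147, adjusted p = 1.00e-14) in shBeclin1 and 4.60 (SE 0.185, adjusted p = 5.78e-22) in shNT cells. Apoa1 was 4.00 times higher in shNT CM cells than in shNT cells without GF (counting interval 1.99 to 8.87; adjusted p = 0.00270), lost without shNT replicate 1 of the culture without GF (adjusted p = 0.0564).

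Other endoderm regulators moved both ways. Of 18 listed 15 were tested, and 4 rose and 6 fell in shBeclin1 cells in CM, where 19.2% of all entries rose and 19.1% fell. Without GF 6 rose and 5 fell, where 27.3% of all entries moved each way, at day 4 5 rose and 3 fell (10.7% and 10.1% of all entries), and at day 0 none was called. These shares of all entries also stand behind the list counts that follow. Gata4, a regulator shared by heart and yolk sac endoderm, averaged 111 ± 1.75 CPM in shBeclin1 and 1.79 ± 0.319 CPM in shNT CM cells, and 158 ± 19.8 against 0.179 ± 0.0101 CPM without GF. Gata6 averaged 132 ± 7.87 against 9.16 ± 1.32 CPM in CM and 205 ± 8.51 against 0.838 ± 0.132 CPM without GF. Foxa2, a pioneer factor of endoderm and of the ventral neural tube, averaged 0.222 ± 0.232 CPM in shBeclin1 and 14.5 ± 1.22 CPM in shNT CM cells, and 1.84 ± 0.185 against 47.9 ± 2.92 CPM without GF. Foxa1 followed, at 0.612 ± 0.0455 against 56.1 ± 2.49 CPM in CM and 3.11 ± 0.111 against 45.5 ± 5.73 CPM without GF (SD, n = 2 each). Foxa3, another forkhead factor, was instead higher in shBeclin1 cells without GF (log2 fold 1.79, adjusted p = 0.0222) and was not called in CM. The median log2 fold of the list was -0.42 in CM and 0.33 without GF.

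Of 10 early endoderm surface and secreted genes, 2 rose and 7 fell in shBeclin1 cells in CM and 5 rose and 4 fell without GF. Dkk1, a secreted Wnt antagonist, changed in opposite directions, at 40.6 ± 2.64 against 2.62 ± 0.313 CPM in CM and 7.73 ± 1.71 against 57.1 ± 0.703 CPM without GF. Cxcr4, a chemokine receptor used to sort definitive endoderm, averaged 28.3 ± 2.21 CPM in shBeclin1 and 6.34 ± 0.593 CPM in shNT embryoid bodies, but 3.09 ± 0.728 against 10.8 ± 0.147 CPM in CM and 2.58 ± 0.786 against 43.4 ± 3.19 CPM without GF (SD, n = 2 each). Trh and Cldn6 fell in CM, with log2 folds of -4.03 and -2.67, and Krt8, a keratin of simple epithelia, rose without GF by 2.76.

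Among 23 further liver and yolk sac secreted proteins, of which 12 were tested, 2 rose (F10 and Vnn1) and 5 fell in shBeclin1 CM cells and 5 rose and 3 fell without GF, and at day 4 none was called. Those that rose without GF beside Afp and Ttr were Fgg, Ambp, Itih2, Serpinf2 and Vnn1, named after their values were seen. Ambp had a fitted log2 fold and SE of 0 at day 0 and at day 4, and was not called in CM (SE 2.07). It thus passed the filter on low counts through the shBeclin1 libraries without GF, where it is high. Serpinf2 was also poorly measured at day 0 and day 4 (SE 2.4 and 1.97), so the count of 5 partly restates that filter. Itih2, a hyaluronan-binding plasma protein, averaged 6.70 ± 0.608 CPM in shBeclin1 and 0.272 ± 0.142 CPM in shNT cells without GF, but 0.0878 ± 0.124 against 1.12 ± 0.0332 CPM in CM. Ambp, the precursor of a plasma lipocalin, averaged 2.41 ± 0.0524 against 0.0573 ± 0.0810 CPM without GF. Vtn, an adhesive plasma protein, fell in both cultures, to 0.0878 ± 0.124 against 19.8 ± 1.28 CPM in CM and to 5.07 ± 0.405 against 131 ± 9.05 CPM without GF. Trf, the plasma iron carrier transferrin, also fell in both, to 11.6 ± 2.16 against 35.5 ± 0.0102 CPM and to 2.04 ± 0.0206 against 4.09 ± 0.273 CPM (SD, n = 2 each).

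**Figure D4:**
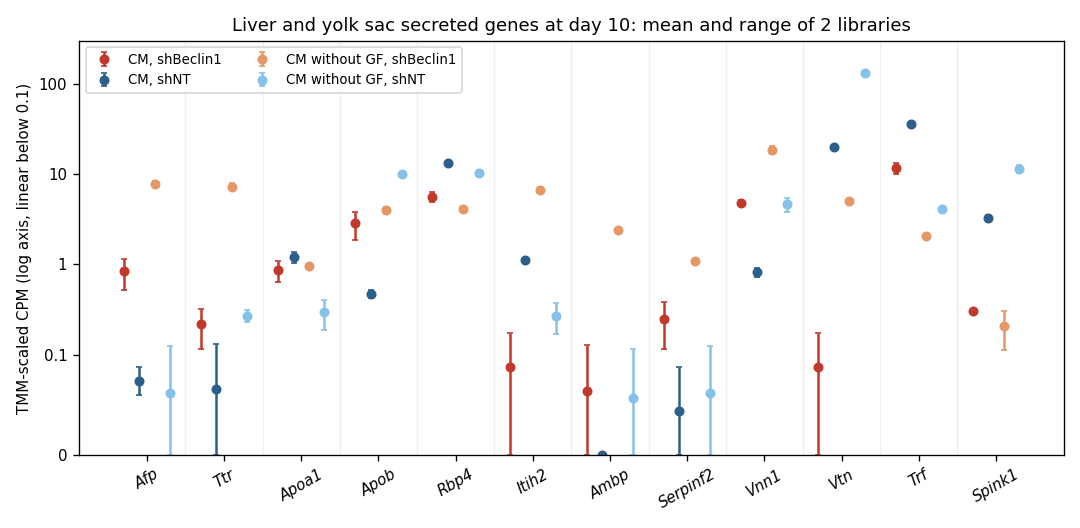
Mean level in CPM (log axis, linear below 0.1) with the range of 2 libraries for selected secretory genes in the 4 day 10 groups. Fgg, F10, F2, Fetub and Ahsg of the same list were tested but are not shown. Afp, Ttr, Itih2, Ambp, Serpinf2 and Vnn1 have their highest point in shBeclin1 cells without GF, whereas Apob, Vtn and Spink1 have theirs in shNT cells without GF.

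Of 21 lipoprotein partners 14 were tested, and 7 rose and 2 fell in shBeclin1 CM cells (38.4% of all entries called) and 9 rose and 3 fell without GF (54.7%), with median log2 folds of 0.34 and 0.89. Mttp, which loads lipid onto the Apob product, rose in CM by a log2 fold of 0.69 (SE 0.121, adjusted p = 1.37e-05). Without GF Mttp averaged 20.7 ± 0.675 CPM in shBeclin1 and 22.6 ± 1.23 CPM in shNT cells (adjusted p = 0.377). Lpl, which releases fatty acids from such particles at the vessel wall, rose in both, to 178 ± 3.99 against 41.4 ± 1.32 CPM and to 191 ± 30.1 against 40.0 ± 0.265 CPM. Abca1, which hands lipid to the Apoa1 product, averaged 43.8 ± 2.93 CPM in shBeclin1 and 9.75 ± 0.425 CPM in shNT cells without GF (log2 fold 2.17, adjusted p = 3.39e-19), beside the rise of Apoa1. Lrp2, an endocytic receptor, and Pltp, a lipid transfer protein, fell in both cultures (SD, n = 2 each).

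Of 10 partners of the retinol carrier, 1 rose and 5 fell in shBeclin1 cells in CM and 2 rose and 5 fell without GF. Stra6, the membrane receptor for the Rbp4 product, fell beside Rbp4, to 0.614 ± 0.0414 against 1.95 ± 0.463 CPM in CM and to 2.81 ± 1.26 against 7.82 ± 0.442 CPM without GF. Crabp1, which binds retinoic acid in the cell, fell to 25.6 ± 0.745 against 106 ± 3.21 CPM in CM and to 31.5 ± 8.84 against 239 ± 18.9 CPM without GF. Cyp26a1, which breaks retinoic acid down, was higher in shBeclin1 embryoid bodies (152 ± 4.20 against 39.8 ± 1.92 CPM) and lower in shBeclin1 CM cells (0.828 ± 0.0124 against 7.12 ± 0.0404 CPM) (SD, n = 2 each).

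Of 10 visceral endoderm uptake genes 6 were tested, with Cubn and Ttpa lower in shBeclin1 CM cells and none higher, and Dab2 and Soat2 higher and Cubn lower without GF. Cubn, the endocytic receptor of visceral endoderm, averaged 1.15 ± 0.0164 CPM in shBeclin1 and 2.89 ± 0.921 CPM in shNT cells without GF, opposite to Afp. Dab2, an endocytic adaptor that many mesodermal cells also express, averaged 251 ± 39.6 against 51.9 ± 1.97 CPM there (SD, n = 2 each). Of 26 gut and islet hormone genes 14 were tested, with 2 higher and 7 lower in shBeclin1 CM cells and 3 higher and 9 lower without GF. Cck, a gut and brain peptide, rose beside Pyy in CM (7.14 ± 0.741 against 0.355 ± 0.00724 CPM). It was also called higher in shBeclin1 cells without GF, where Pyy had no counts. The endocrine factor Neurod1, which neurons share, fell there (0.155 ± 0.0538 against 2.42 ± 0.395 CPM).

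By the correlation of log2 CPM over the 16 libraries, which share depth scaling and 8 group means, Sox17 was most like Cul7 (Pearson r = 0.99), Flt1 (0.99), a receptor of endothelium, and Tmem164 (0.99). Hnf4a was most like Gpat2 (0.96), Dnah10 (0.96) and Nr5a2 (0.96), a nuclear receptor of stem cells and liver. Afp was most like Ociad2 (0.96), Fech (0.96), which completes haem synthesis, and Ccbe1 (0.95), and Ttr was also nearest to Ociad2 (0.92). By Spearman's rank correlation the nearest were others, Slc4a2 for Afp and Tmub1 for Ttr, and Ociad2 stood at rank 232 for Afp and 908 for Ttr. Cul7, Flt1 and Tmem164 stood at ranks 23, 52 and 75 for Sox17, and Gpat2, Dnah10 and Nr5a2 at 10, 10 and 72 for Hnf4a. Apoa1 was most like Gimap6 (0.98) and Vav3 (0.97), Rbp4 like Mgat5 (0.97), Mgat3 (0.96) and Cped1 (0.96), Apob like Zfp763 (0.97), Sncg (0.93) and Mbip (0.92), and Pyy like Hdac4 (0.92), Madcam1 (0.90) and Srp68 (0.90). By Spearman, Gimap6 stood at rank 2 for Apoa1, Zfp763 at 3 and Sncg at 2 for Apob. Mgat3 stood at 1 but Cped1 at 308 for Rbp4, and Hdac4 at 30 for Pyy. Between members the highest correlation was that of Afp with Ttr (0.92), then Apoa1 with Sox17 (0.76) and Apoa1 with Rbp4 (0.74), and the lowest was Hnf4a with Sox17 (-0.68). Afp and Ttr both passed the filter on low counts through the shBeclin1 libraries without GF, so their correlation largely restates that shared high group.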

How the data were processed

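ES-E14TG2a RNA for 16 libraries was extracted in TRIzol, depleted of rRNA, turned into stranded libraries and read in pairs, per the labels' protocols; the molecule tag says polyA RNA, so the fraction kept is not settled. The values the authors deposited are raw gene counts, listed by symbol, and each column was matched to its sample. According to notes the submitters gave on processing, Trimmomatic 0.36, featureCounts, Subread 1.5.1 and SAMtools were used with mm10. The aligner, the annotation and any use of strand were not given in the sources used here. Without a stated strand setting, reads of overlapping genes on opposite strands cannot be told apart: Gm37587 shares 804 bases (16.8%) of the Sox17 exon length, at 0 to 2 counts a library.

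Of 54052 entries, 18471 were 0 in all libraries, 959 rows repeated a symbol and were kept apart, and filterByExpr left 19141. Counts were fitted with edgeR 4.0.16 in R 4.3.3 (TMM, robust quasi-likelihood test, 1 mean per group, 8 residual degrees of freedom, common biological coefficient of variation 5.38%), with Benjamini-Hochberg adjustment over the 19141 entries within each of 16 comparisons and calls at an adjusted p under 0.05. SEs were obtained by dividing the absolute log2 fold by the square root of the F statistic. Counting intervals are exact, at 95%, and cover counting error only; a bound against a group at 0 uses 3 counts over the group. Likeness used log2 CPM with a prior count of 2, with the same floor of expression as the naming rule below. Since the batch tag repeats the group, the batch cannot be told apart from it. The script was tested on simulated counts. DESeq2 1.42.0, other scalings and filters, dropped libraries, a replicate block and fits on the libraries of a comparison alone were the alternatives.

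The members and lists were chosen with earlier results of these data known. Besides the members and Becn1, up to 3 called genes per list and knockdown comparison were named by rule, those with the largest absolute log2 fold at a mean log2 CPM of at least 0, filled up by level; others are named where few of a list moved or where their values had been seen, such as Cdh5, Alb, Mttp, Cck, Stra6, Abca1, Itih2 and Ambp. Gene identifiers and coordinates are from GENCODE vM21 on GRCm38, the build of mm10. RefSeq windows were found for 7 members; none is shown for Sox17 and Ttr.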

Additional observations from a re-analysis of the deposited data

Results flagged for a closer look

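The effect of the knockdown differed between sampling points for 6 members, by a test of the difference itself on the log2 scale (edgeR, adjusted over all tested entries). Between CM and CM without GF the difference was 3.83 for Apob, -2.46 for Sox17, -3.16 for Hnf4a and -2.15 for Apoa1. Between CM without GF and day 4 it was 1.98 for Sox17 (SE 0.313, adjusted p = 2.43e-06), -2.58 for Apob (SE 0.754, adjusted p = 0.00575), -1.55 for Rbp4 and 10.2 for Afp (adjusted p = 0.00136). Between CM and day 4 it was -1.48 for Rbp4 and 6.68 for Afp (adjusted p = 0.0313). Both Afp values set day 10 against shBeclin1 embryoid bodies with 0 counts, so their size depends on the prior count of the fit. The Afp difference between CM and day 4 was not called when any day 4 library (adjusted p 0.0702 to 0.106) or shBeclin1 CM replicate 1 (0.0552) was dropped, and the one without GF moved to 13.4 without shNT replicate 1 of that culture.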

How the results depend on the processing

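Of 62 called folds of members, 44 were lost in no alternative that gave them a value and 18 were lost in at least 1, and none changed direction. The number of members called between hairpins at day 0 was 1, and became 0 with no filter on low counts, 0 in the fit on the libraries of the comparison alone, 0 with DESeq2, 2 with the stricter filter and 0 to 0 with a library dropped. In CM it was 6, and 3 to 6 with a library dropped. Between day 4 and day 0 in shNT cells it was 5, and became 3 with no filter, 3 in the comparison alone, 3 with DESeq2 and 2 to 3 with a library dropped. Between CM and day 4 in shNT cells it was 5, and became 3 in the comparison alone, 3 with DESeq2 and 3 to 4 with a library dropped. Between CM and CM without GF in shNT cells it was 5, and became 3 with DESeq2 and 2 to 5 with a library dropped. For the difference between CM and day 4 it was 2, and became 1 in the comparison alone and 1 to 2 with a library dropped. In the comparison alone the filter on low counts sees fewer libraries, and Apob and Pyy between day 4 and day 0, Hnf4a and Pyy between CM and day 4, and Afp in the difference were not tested there; the cause of the other shifts was not tested.

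The replicate numbers showed no pairing of the samples: differences between the replicates of a group correlated between the hairpins at -0.02 to 0.02. These differences over all tested entries include counting error, and the labels do not speak of pairing, so a pairing is not excluded. A replicate block ended the calls of Pyy between day 4 and day 0 (adjusted p = 0.0503) and between CM and CM without GF (adjusted p = 0.0676), both in shNT cells, and no other. A dropped library moved some called folds that rest on few counts: Hnf4a between day 4 and day 0 ran from -8.94 to -4.95 in shBeclin1 and from -5.72 to -3.57 in shNT cells without either day 4 library, and Ttr between CM without GF and day 4 from 6.84 to 9.92 in shBeclin1 cells. With 2 libraries a group and under 30 counts for Afp, Apoa1, Hnf4a and Pyy in several groups, absence of a call does not show that levels were alike.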

Other observations

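Several liver-type genes besides Hnf4a stood highest in stem cells and were lower in embryoid bodies with either hairpin. Nr5a2, which stem cells use as well, averaged 4.11 CPM at day 4 against 92.9 CPM at day 0 in shBeclin1 cells, and 4.69 against 101 CPM in shNT cells. Soat2, which esterifies cholesterol, averaged 0.0278 against 4.43 CPM in shBeclin1 and 0.172 against 7.79 CPM in shNT cells. F2, which encodes prothrombin, had no counts at day 4 against 5.2 CPM at day 0 in shBeclin1 cells, and 0.0348 against 4.79 CPM in shNT cells. Of 12 tested liver and yolk sac secreted genes, 5 fell and 0 rose between day 4 and day 0 in each hairpin, where 32.3% of all entries fell in shBeclin1 and 32.6% in shNT cells, a share not far from that of the list. All 10 early endoderm surface and secreted genes rose in both hairpins, where 35.5% of all entries rose in shBeclin1 and 34.3% in shNT cells.

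In cells without GF, several genes shared by neurons and endocrine cells were low with shBeclin1. Of the 14 tested gut and islet hormone genes 9 fell there, while Cck, Sct and Isl1 rose, where 27.3% of all entries fell and 27.3% rose. Scg2 averaged 0.553 CPM in shBeclin1 and 22.9 CPM in shNT cells, Sst 2.43 against 25.9 CPM and Insm1 0.136 against 12 CPM. Chgb averaged 3.39 against 27.5 CPM, and Chga fell too. Pyy had no counts in either of these groups.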
